A study of Homo sapiens with 12 samples.

Results

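Mediator is the large protein complex that bridges DNA-bound activators and RNA polymerase II, and its genes were followed here through BET inhibition and BET degradation in a glioblastoma line. The members were taken by a rule on names that uses no values, in a set chosen with earlier results of these data known. The rule takes every protein-coding row of the deposited gene table whose symbol is MED followed by digits with an optional L. It also takes CDK8, CDK19 and CCNC. The rule found 33 genes among 57773. Of these, 7 belong to the core of the head, 4 to the interface of head and tail, 9 to the middle, 1 (MED14) is the scaffold, 5 belong to the tail and 7 to the kinase module.

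The cells were U87, an established human glioblastoma line, as a derivative labelled as having acquired resistance to JQ1 and as the parental line. Each of these was treated for 24 h with 1000 nM dBET6, 1000 nM JQ1 or the solvent DMSO, and 2 polyA RNA libraries were made per group, 12 in all. The labels give no clone for the resistant derivative and do not say whether the 2 libraries of a group came from separate cultures, and p-values therefore speak only of the variation among these libraries. JQ1 is a small molecule that occupies the bromodomains of the BET proteins, which read acetylated histones, and dBET6 carries a JQ1-type ligand linked to a ligand of the ubiquitin ligase receptor cereblon, by which bound BET proteins are degraded.

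The head of Mediator contacts RNA polymerase II, the middle extends the core and holds the hook and hinge, the tail is the main landing surface of activators, and MED14 runs through all of these as the backbone. The kinase module (CDK8 or CDK19 with cyclin C, MED12 or MED12L, and MED13 or MED13L) binds the core reversibly and hinders its contact with the polymerase. MED26 sits where the kinase module would bind and recruits elongation factors. Mediator is found at many enhancers and promoters, among them the large enhancer clusters that drive lineage and growth genes in tumour cells.

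The promoters of 3 members that dBET6 moved in both lines are shown first. MED26 (ENSG00000105085) and MED19 (ENSG00000156603) were among the few that rose, and MED1 (ENSG00000125686) had the lowest fold change of all. The sequences are the 250 bases before the annotated start in RefSeq on GRCh38.p14, all on the minus strand, printed 5′ to 3′. They lie at chr19:16628205-16628454 for MED26, chr11:57712216-57712465 for MED19 and chr17:39451264-39451513 for MED1. Capitals mark matches to GGGCGG (the GC box) and CCAAT on either strand.
MED26: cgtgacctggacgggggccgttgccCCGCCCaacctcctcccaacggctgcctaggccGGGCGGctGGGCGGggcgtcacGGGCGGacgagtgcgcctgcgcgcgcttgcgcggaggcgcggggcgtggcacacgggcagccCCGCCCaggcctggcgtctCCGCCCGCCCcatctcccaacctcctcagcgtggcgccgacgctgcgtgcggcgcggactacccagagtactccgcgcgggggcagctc
MED19: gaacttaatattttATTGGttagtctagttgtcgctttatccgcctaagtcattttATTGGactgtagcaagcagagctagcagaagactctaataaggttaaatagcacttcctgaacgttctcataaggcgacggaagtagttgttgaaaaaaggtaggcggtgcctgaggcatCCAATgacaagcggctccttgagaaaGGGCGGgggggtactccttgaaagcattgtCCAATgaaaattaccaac
MED1: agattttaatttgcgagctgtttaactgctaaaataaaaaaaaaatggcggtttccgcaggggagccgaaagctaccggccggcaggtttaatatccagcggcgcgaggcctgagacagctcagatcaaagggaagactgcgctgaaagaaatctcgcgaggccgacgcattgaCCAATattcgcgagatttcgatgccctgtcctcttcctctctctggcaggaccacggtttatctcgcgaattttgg
The MED26 window held 7 matches to GGGCGG, some of them overlapping, and none to CCAAT, at 78% G and C. The MED19 window was 43.6% G and C and held 4 matches to CCAAT and 1 to GGGCGG. The MED1 window was 50.4% G and C with 1 match to CCAAT. The windows of the 2 genes that rose thus differ in these letters, and a match is a description of a sequence, not a bound site.

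Of the members, 25 had an entry in the promoter table. GGGCGG was found in 16 of these 25 windows (64%), against 42.6% of 35116 windows in all, and CCAAT in 10 (40%), against 32%. CCGGAA, the core that ETS factors bind, was found in 8 (32%), against 14.5%. GCGCATGC, part of the site of NRF1, was found in 2 (8%), against 2.63%, CACGTG, the E-box, in 2 (8%), against 6.34%, and TATAAA in 2 (8%), against 10.7%. All motifs were searched on both strands, and these shares carry no test. The median share of G and C was 58.2% over the members and 58% over all windows.

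The libraries held 24732177 to 40388589 estimated counts. Libraries of a group resembled each other (Pearson r across genes 0.982 to 0.994, genes not being independent replicates) yet differed beyond counting noise. Of the glioma markers, VIM (2910 to 11100 FPKM) and CD44 (242 to 628) were high in every library, NES (3.67 to 20.1) and GFAP (1.58 to 6.39) were lower, and S100B, OLIG2 and SOX2 stayed at or below 1.87 FPKM, OLIG2 and SOX2 reaching 0 in some libraries. The markers of blood cells (PTPRC), epithelium (EPCAM) and neurons (RBFOX3) did not exceed 0.62 FPKM. Transcripts encoded in the mitochondrial genome took 3.02% to 3.75% of the counts with dBET6, against 1.40% to 2.59% in the other libraries, and the Mediator genes took 0.0512% to 0.0714% with dBET6, against 0.124% to 0.157% in the others. The part of such a change in composition in any fall was not tested, and in bulk RNA fewer cells and less RNA per cell cannot be told apart.

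Levels of different genes were compared in the deposited FPKM, which are per length. Without a compound the complex spanned a wide range: in resistant cells with DMSO the members had a median of 17.6 FPKM, from 0.128 (MED12L) to 100 (MED10), and in parental cells with DMSO a median of 16.7, from 0.233 (MED12L) to 62.1 (MED15). MED12L, the paralog of MED12, was the lowest member in all 6 groups. The next lowest in parental DMSO cells were MED17 (5.12 ± 0.642 FPKM, mean ± SD, n = 2), CDK8 (5.54 ± 0.325) and MED26 (6.13 ± 0.385). The libraries of MED17 and CDK8 overlapped, and those of CDK8 and MED26 did not. MED15 (62.1 ± 2.32) and MED10 (52.7 ± 2.29) were the highest. Next came MED24 (47.2 ± 1.96) and MED25 (44.6 ± 2.16), both in the tail, which lay within their spread of each other. MED12L was under 1 FPKM in every library and MED30 in 1 parental dBET6 library, and the other members were above it throughout.

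With dBET6 the level structure of the complex changed. The median member had 5.22 FPKM in resistant cells with dBET6, against 15.2 with JQ1 and 17.6 with DMSO, and 5.85 FPKM in parental cells with dBET6, against 15.7 with JQ1 and 16.7 with DMSO. MED19 became the highest member in parental dBET6 cells (100 FPKM) and MED24 in resistant dBET6 cells (64.7). MED26 stood at 31.6 ± 2.09 FPKM with dBET6 in resistant cells, against 8.47 ± 0.99 with DMSO, and at 29.9 ± 2.66 FPKM with dBET6 in parental cells, against 6.13 ± 0.385 with DMSO.

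Changes between groups were tested on the estimated counts, summed per gene and scaled to counts per 1000000 (CPM) by TMM, which centres the bulk of genes. A gene was called when edgeR's quasi-likelihood test gave an adjusted p under 0.05 over all 19093 genes tested. All 33 members passed the filter on low counts. Every log2 fold change below is the first named group minus the second, with its standard error.

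In resistant cells dBET6, set against DMSO, lowered 26 of the 33 members and raised 5, where 39.5% of all genes tested were called lower and 35.7% higher. The median log2 fold change was -1.62 over the members and -0.06 over all genes, and 21 members were called at least 2-fold lower. In parental cells dBET6 lowered 26 and raised 3, where 39.3% of all genes were lower and 37.0% higher, with medians of -1.34 and -0.01. The 2 lists of lowered members share 25 genes (25 of 26 in each line), the 3 genes raised in parental cells are 3 of the 5 raised in resistant cells, and no member was called in opposite directions. The libraries of dBET6 and DMSO did not overlap for 33 members (100%) in resistant and 30 (90.9%) in parental cells. Over all genes tested 87.1% and 86.7% did not overlap, and 75.2% and 76.3% were called.

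**Figure D1:**
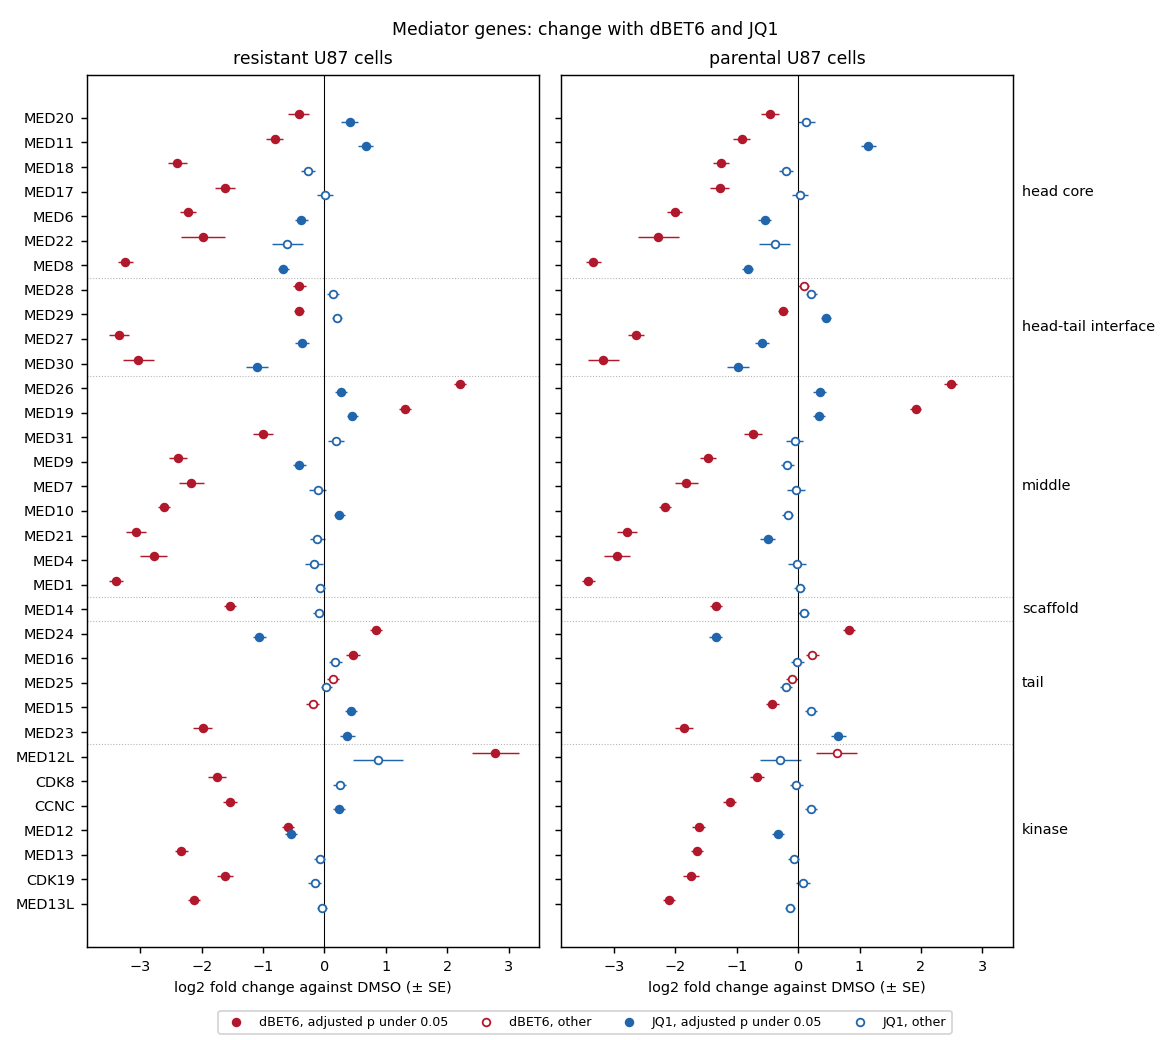
Log2 fold change (horizontal axis, ± SE) of each Mediator gene (vertical axis, grouped by module) for dBET6 (red) and JQ1 (blue) against DMSO, in resistant cells on the left and parental cells on the right. Filled points have an adjusted p under 0.05. The red points reach from -3.40 (MED1) to 2.78 (MED12L) in resistant cells, and most lie left of 0, while the blue points of both lines reach from -1.35 (MED24) to 1.14 (MED11), both in parental cells.

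The fall ran through head, interface, middle and kinase module, and the tail genes were split. All 7 core head genes were called lower in both lines, with a median log2 fold change of -1.98 in resistant and -1.28 in parental cells. In the middle 7 of 9 were lower and 2 higher in both lines (median -2.39 and -1.82). Of the kinase module 6 of 7 were lower in both lines (median -1.62 in each). Of the interface 4 of 4 were lower in resistant and 3 of 4 in parental cells. Of the 5 tail genes 2 were higher and 1 lower in resistant cells, and 1 was higher and 2 lower in parental cells, with medians of 0.14 and -0.10, which came to -0.94 and -0.74 when libraries were scaled by total counts. Counts of the tail summed over its genes came to 514 and 475 CPM with dBET6, against 404 and 407 with DMSO, in resistant cells. In parental cells they came to 523 and 398 CPM with dBET6, against 423 and 428 with DMSO, which overlap. Those of the core head came to 29.1 and 31.2 CPM with dBET6, against 123 and 123 with DMSO, in resistant cells. In parental cells the core head came to 35.6 and 39.2 CPM with dBET6, against 128 and 125 with DMSO.

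MED1, the middle subunit through which nuclear receptors and GATA factors reach Mediator, had the lowest fold change of the 33 members. It stood at 9.96 and 8.47 CPM with dBET6, 90.3 and 93.8 with JQ1 and 97.9 and 95.9 with DMSO in resistant cells. In parental cells it had 7.80 and 7.25 CPM with dBET6, 78.4 and 85.8 with JQ1 and 82.2 and 79.5 with DMSO. The dBET6 libraries lay far below the others, which ran together. The log2 fold change of dBET6 over DMSO was -3.40 ± 0.11 (SE; adjusted p = 2.77e-20) in resistant cells, a 10.5-fold fall, and -3.42 ± 0.11 (SE; adjusted p = 2.28e-20) in parental cells.

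MED8, a head subunit, had 5.02 and 4.80 CPM with dBET6, 27.6 and 30.96 with JQ1 and 46.6 and 46.5 with DMSO in resistant cells, and 3.80 and 4.61 CPM with dBET6, 23.6 and 24.2 with JQ1 and 42.004 and 42.8 with DMSO in parental cells. The 3 treatments formed 3 steps in each line, with JQ1 between dBET6 and DMSO. Its log2 fold change with dBET6 was -3.25 ± 0.12 in resistant and -3.34 ± 0.12 in parental cells (edgeR adjusted p 8.16e-19 and 4.25e-19). MED30, an interface subunit of animals, showed the same order at a low level: 1.17 and 0.685 CPM with dBET6, 3.58 and 3.44 with JQ1 and 7.42 and 7.62 with DMSO in resistant cells, and 0.999 and 0.466 CPM with dBET6, 3.17 and 3.69 with JQ1 and 6.20 and 7.27 with DMSO in parental cells. The dBET6 values of MED30 rest on 9 to 21 counts per library. Its log2 fold change with dBET6 was -3.03 ± 0.26 in resistant and -3.17 ± 0.25 in parental cells.

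MED27, also of the interface, had 1.79 and 2.80 CPM with dBET6, against 24.1 and 23.2 with DMSO in resistant cells and 4.90 and 4.14 CPM with dBET6, against 28.2 and 28.5 with DMSO in parental cells, with log2 fold changes of -3.35 ± 0.16 and -2.65 ± 0.13. MED14, the backbone, had 21.4 and 24.6 CPM with dBET6, against 68.1 and 65.4 with DMSO in resistant cells, and its log2 fold change was -1.53 ± 0.10 (SE; adjusted p = 3.37e-14). In parental cells MED14 had 20.8 and 20.04 CPM with dBET6, against 52.96 and 50.8 with DMSO, with -1.34 ± 0.09 (SE; adjusted p = 5.86e-13). The groups of these genes did not overlap. The other members that fell in both lines had log2 fold changes from -3.07 (MED21) to -0.41 (MED29) in resistant and from -2.96 (MED4) to -0.25 (MED29) in parental cells. The smallest of these depend on single libraries. MED20 was no longer called in resistant cells without any 1 of the 4 dBET6 and DMSO libraries (-0.47 to -0.38) and in parental cells without dBET6 replicate 2 (-0.22). MED29 was no longer called in parental cells without dBET6 replicate 2 (-0.20) or DMSO replicate 2 (-0.21).

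MED26, which recruits elongation factors, rose most among well-measured members. It had 126 and 113 CPM with dBET6, 29.2 and 33.2 with JQ1 and 26.997 and 24.5 with DMSO in resistant cells and 119 and 105.4 CPM with dBET6, 25.9 and 25.2 with JQ1 and 18.8 and 21.4 with DMSO in parental cells. All 4 dBET6 libraries lay above 100 CPM and all others below 34. The log2 fold change was 2.21 ± 0.10 (SE; adjusted p = 3.82e-17) in resistant cells (4.63-fold) and 2.48 ± 0.10 (SE; adjusted p = 6.41e-18) in parental cells (5.60-fold). MED19, a middle subunit at the hook, had 52.1 and 50.2 CPM with dBET6, 26.2 and 30.2 with JQ1 and 21.4 and 19.8 with DMSO in resistant cells and 84.9 and 84.5 CPM with dBET6, 27.6 and 29.5 with JQ1 and 22.3 and 22.7 with DMSO in parental cells. Here too the dBET6 libraries were the highest, more so in parental cells, with log2 fold changes of 1.31 ± 0.09 (SE; adjusted p = 6.8e-13) and 1.91 ± 0.09 (SE; adjusted p = 1.9e-16). MED24, a tail subunit that pairs with MED16 and MED23, had 169 and 167 CPM with dBET6, 44.04 and 45.8 with JQ1 and 94.8 and 92.5 with DMSO in resistant cells and 196 and 145 CPM with dBET6, 38.3 and 37.5 with JQ1 and 97.1 and 95.8 with DMSO in parental cells. It was highest with dBET6 and lowest with JQ1, and its log2 fold change with dBET6 was 0.84 ± 0.10 (SE; adjusted p = 2.11e-08) in resistant and 0.82 ± 0.10 (SE; adjusted p = 3.25e-08) in parental cells. On log2(FPKM + 1) the log2 difference of MED24 was 0.22 in resistant cells, which was not called, and 0.47 in parental cells.

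MED12L had 2.47 and 1.68 CPM with dBET6, against 0.200 and 0.406 with DMSO in resistant cells, on 36 and 27 counts against 10 and 17. Its log2 fold change there was 2.78 ± 0.38 (SE; adjusted p = 2.06e-07), and 0.63 ± 0.33 (SE; adjusted p = 0.0872) in parental cells. In the deposited FPKM the dBET6 libraries of resistant cells disagree for this gene (0.960 and 0.212, against 0.132 and 0.124 with DMSO), and on log2(FPKM + 1) the log2 difference was 0.45 and not called. MED16, of the tail, was the fifth to rise in resistant cells, with a log2 fold change of 0.47 ± 0.11 (SE; adjusted p = 0.000617). The members that did not pass the test with dBET6 were MED15 (-0.19 ± 0.10) and MED25 (0.14 ± 0.10) in resistant cells. In parental cells they were MED28 (0.09 ± 0.09), MED16 (0.23 ± 0.11), MED25 (-0.10 ± 0.10) and MED12L.

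The direction of the genes that rose depends on the scaling. When libraries were scaled by total counts, the median of all genes fell by 1.14 in resistant and 0.65 in parental cells on the log2 scale, and when scaled to the 13 mitochondrially encoded mRNAs it fell by 2.12 and 1.78. Under total counts MED26 kept log2 fold changes of 1.14 and 1.85 and MED19 of 0.23 and 1.28, in resistant and parental cells, while MED24 turned to -0.23 in resistant cells with 0.18 in parental cells. Under mitochondrial scaling MED26 stood at 0.14 and 0.70, MED19 at -0.76 and 0.14, and MED24 at -1.23 and -0.97. In that scaling no member was called higher and 31 lower in resistant cells, and 1 higher and 31 lower in parental cells.

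**Figure D2:**
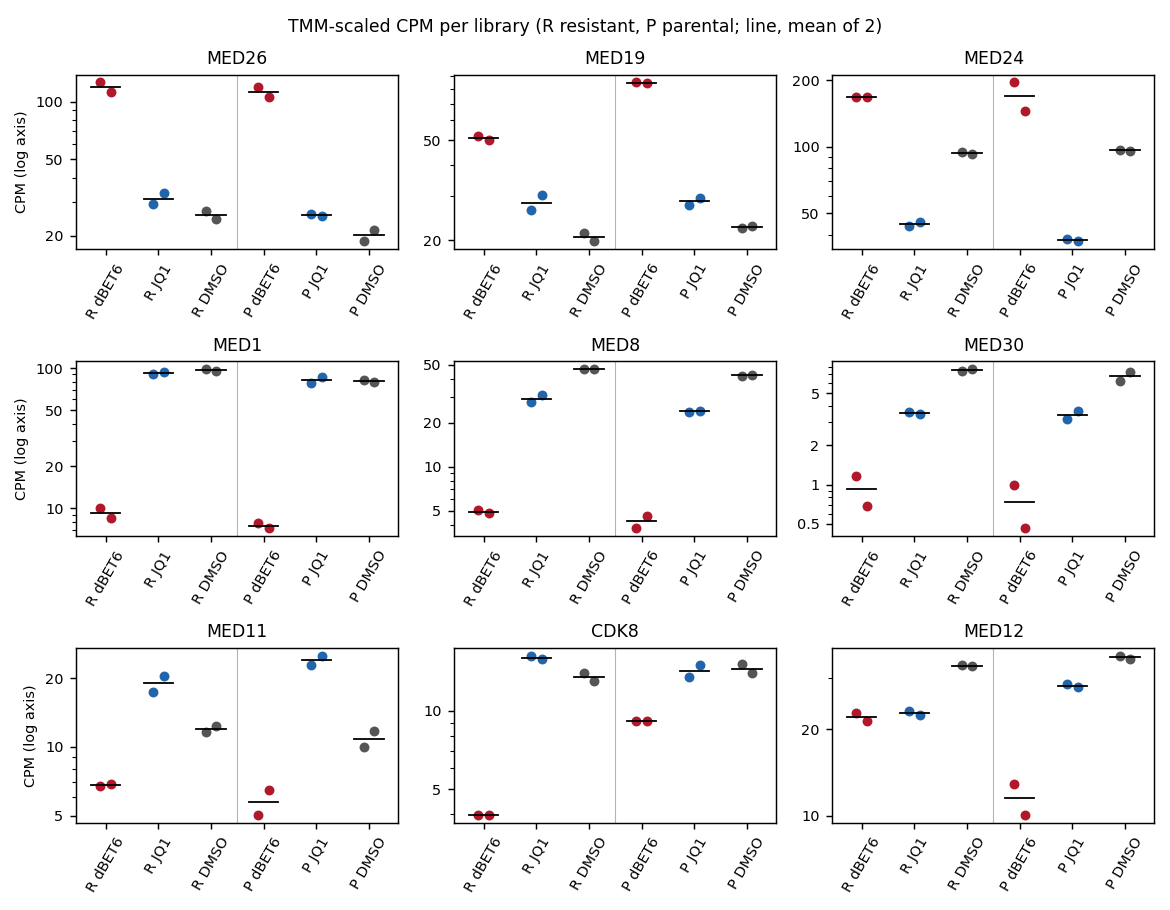
TMM-scaled CPM (vertical log axis) of 9 Mediator genes in each library, with R for resistant and P for parental cells. Points are the 2 libraries of a group and lines their means. MED26, MED19 and MED24 are highest with dBET6, MED1, MED8 and MED30 lowest, and MED11 is highest with JQ1.

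In the kinase module CDK8 and CDK19, the alternative kinases, both fell with dBET6. CDK8 had 3.98 and 3.99 CPM with dBET6, 16.2 and 15.7 with JQ1 and 13.9 and 12.98 with DMSO in resistant cells and 9.13 and 9.11 CPM with dBET6, 13.4 and 14.95 with JQ1 and 15.1 and 13.9 with DMSO in parental cells. The dBET6 libraries were lowest in both lines, and lower in resistant than in parental cells. The log2 fold change of CDK8 with dBET6 was -1.75 ± 0.14 (SE; adjusted p = 7.24e-12) in resistant and -0.67 ± 0.12 (SE; adjusted p = 1.35e-05) in parental cells. CDK19 had 8.24 and 8.72 CPM with dBET6, against 24.9 and 27.4 with DMSO in resistant and 5.80 and 7.77 CPM with dBET6, against 24.1 and 21.3 with DMSO in parental cells, with log2 fold changes of -1.62 ± 0.13 and -1.75 ± 0.13, both called.

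CCNC, the cyclin of both kinases, had 10.4 and 11.5 CPM with dBET6, against 32.8 and 31.2 with DMSO in resistant and 17.7 and 20.2 CPM with dBET6, against 44.3 and 37.7 with DMSO in parental cells. Its log2 fold changes were -1.54 ± 0.12 and -1.11 ± 0.10. MED12, which activates the kinase through cyclin C, had 22.7 and 21.2 CPM with dBET6, 23.1 and 22.3 with JQ1 and 33.2 and 33.03 with DMSO in resistant cells. In parental cells MED12 had 12.9 and 10.1 CPM with dBET6, 28.6 and 27.9 with JQ1 and 35.8 and 35.1 with DMSO. In resistant cells its dBET6 and JQ1 libraries lay side by side, in parental cells the dBET6 libraries were far lower. The log2 fold change with dBET6 was -0.59 ± 0.10 (SE; adjusted p = 9.87e-06) in resistant and -1.62 ± 0.11 (SE; adjusted p = 1.62e-13) in parental cells. With genes averaging at least 10 CPM alone, the MED12 value in resistant cells was -0.19 and not called.

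MED13 and MED13L tie the kinase module to the core. With dBET6 the log2 fold change of MED13 was -2.33 ± 0.11 in resistant and -1.65 ± 0.10 in parental cells, and that of MED13L was -2.13 ± 0.10 and -2.10 ± 0.10. All 4 changes were called. In the deposited FPKM the dBET6 libraries of MED13 differ widely. They had 3.71 and 9.74 FPKM, against 10.05 and 11.1 with DMSO, in resistant cells. In parental cells they had 7.42 and 3.75 FPKM, against 10.5 and 7.56 with DMSO.

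The balance of the paralogs was described by their share of the summed TPM, which are per length. CDK19 made up 61.3% and 62.9% of CDK8 plus CDK19 in resistant cells with dBET6, against 55.2% and 61.9% with DMSO. In parental cells its share was 35.1% and 43.4% with dBET6, against 54.7% and 55.6% with DMSO. The dBET6 and DMSO libraries did not overlap in parental cells, where the share was lower with dBET6, and overlapped in resistant cells. With JQ1 the share was 53.6% and 56.5% in resistant and 55.2% and 57.3% in parental cells. MED12L made up 15.5% and 4% of MED12 plus MED12L in resistant cells with dBET6, against 1.94% and 1.77% with DMSO. In parental cells MED12L made up 21.4% and 5.36% with dBET6, against 3.75% and 3.27% with DMSO. Both dBET6 libraries lay above both DMSO libraries in each line, although they differ widely from each other. With JQ1 MED12L made up 2.76% and 7.69% in resistant and 3.85% and 8.99% in parental cells. These JQ1 libraries also lay above both DMSO libraries of their line, and they overlapped with those of dBET6. MED13L made up 42.1% and 18.1% of MED13 plus MED13L in resistant cells with dBET6, against 46.6% and 39.6% with DMSO, which overlap. In parental cells MED13L made up 17.6% and 33.01% with dBET6, against 37.2% and 48.3% with DMSO, which do not overlap. All these shares count every transcript, coding or not. In parental cells with dBET6, 31.3% and 58.7% of MED13 TPM lay in transcripts typed as protein coding, against 74.5% and 90% with DMSO. For MED13L it was 88.8% and 91.5% with dBET6, against 94.9% and 85.6% with DMSO. In resistant cells the coding share of CDK8 was 56.3% and 68% with dBET6, against 94.9% and 95.2% with DMSO. That of CDK19 was 90% and 68.6% with dBET6, against 84.2% and 86.3% with DMSO. In parental cells CDK8 had 100% in both dBET6 libraries, against 94% and 96.8% with DMSO. CDK19 had 56.5% and 74.6% with dBET6 there, against 88.2% and 90.8% with DMSO. The part of these coding shares in the changes of the paralog shares was not tested.

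With JQ1 fewer members were called than with dBET6. Under TMM scaling MED24 moved farther with JQ1 than with dBET6 and in the other direction, in both lines. The opposite direction was lost under mitochondrial scaling in both lines and under total counts in resistant cells. The comparisons of JQ1 with DMSO share their DMSO libraries with those of dBET6. In resistant cells 8 members were called higher and 7 lower than with DMSO, where 20.8% of all genes were higher and 23.1% lower, with a median log2 fold change of -0.04 over the members and 0.01 over all genes. In parental cells 5 were higher and 7 lower, where 22.8% of all genes were higher and 26.1% lower, with medians of -0.03 and 0.01. The libraries of JQ1 and DMSO did not overlap for 29 members (87.9%) in resistant and 22 (66.7%) in parental cells. Over all genes tested 73% and 71.7% did not overlap, and 43.9% and 48.9% were called in either direction. Both lines share 6 of the 7 lower members (MED12, MED24, MED27, MED30, MED6 and MED8) and 4 of the higher ones (MED11, MED19, MED23 and MED26, which are 4 of 8 in resistant and 4 of 5 in parental cells). Under total counts 3 were higher and 14 lower in resistant cells and 5 and 12 in parental cells. Under mitochondrial scaling it was 0 and 19 in resistant and 1 and 9 in parental cells.

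MED11, a small head subunit that pairs with MED22, rose most with JQ1. It had 6.73 and 6.85 CPM with dBET6, 17.4 and 20.6 with JQ1 and 11.6 and 12.3 with DMSO in resistant and 5.04 and 6.47 CPM with dBET6, 22.98 and 25.04 with JQ1 and 10.01 and 11.8 with DMSO in parental cells. The JQ1 libraries were the highest and the dBET6 libraries the lowest in both lines. Its log2 fold change with JQ1 was 0.67 ± 0.12 (SE; adjusted p = 4.21e-05) in resistant and 1.14 ± 0.12 (SE; adjusted p = 9.05e-09) in parental cells, and with dBET6 it was -0.81 ± 0.14 and -0.92 ± 0.14. Under mitochondrial scaling the JQ1 value of MED11 was 0.10 in resistant cells, not called, and 0.84 in parental cells. MED23, a tail subunit used by ELK1 and by the adenoviral E1A protein, had 4.53 and 7.66 CPM with dBET6, 30.2 and 32.7 with JQ1 and 25.02 and 23.8 with DMSO in resistant and 5.14 and 5.59 CPM with dBET6, 29.7 and 31.7 with JQ1 and 21.3 and 17.7 with DMSO in parental cells. It too was highest with JQ1 and lowest with dBET6, and its log2 fold change with JQ1 was 0.37 ± 0.12 (SE; adjusted p = 0.017) and 0.65 ± 0.12 (SE; adjusted p = 0.000114). The MED23 call in resistant cells is lost without JQ1 replicate 2, DMSO replicate 1 or DMSO replicate 2 (0.29 to 0.42 over all exclusions). MED23 was rebuilt to 83.5% of its deposited FPKM from the paired transcripts, and MED22 to 46.6%, so the levels of these members are less certain than their errors say.

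MED24, MED30 and MED8 had the lowest values with JQ1 in both lines. In parental cells the log2 fold change was -1.35 ± 0.10 (SE; adjusted p = 2.63e-11) for MED24, -0.98 ± 0.18 for MED30 and -0.82 ± 0.09 for MED8. In resistant cells it was -1.06 ± 0.10 for MED24, -1.10 ± 0.18 (SE; adjusted p = 9.68e-06) for MED30 and -0.67 ± 0.09 for MED8. MED19 rose by 0.45 ± 0.09 and 0.34 ± 0.09, and MED26 by 0.28 ± 0.10 and 0.35 ± 0.10, in resistant and parental cells, and in resistant cells both turned negative under mitochondrial scaling (MED19 -0.13, MED26 -0.30). The MED26 call is lost without parental DMSO replicate 1 (0.26) in parental cells and without JQ1 replicate 2 (0.16) or DMSO replicate 2 in resistant cells. MED29 rose in parental cells (0.45 ± 0.08) and MED15 in resistant cells (0.43 ± 0.10).

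Several members did not pass the test with JQ1 in either line. The log2 fold changes in resistant and parental cells were -0.07 ± 0.08 and 0.02 ± 0.08 for MED1, -0.10 ± 0.09 and 0.09 ± 0.09 for MED14, and 0.25 ± 0.11 and -0.03 ± 0.11 for CDK8. They were -0.16 ± 0.11 and 0.08 ± 0.11 for CDK19, -0.08 ± 0.09 and -0.07 ± 0.09 for MED13, and -0.04 ± 0.08 and -0.13 ± 0.08 for MED13L. MED12L had 0.87 ± 0.40 and -0.29 ± 0.33. CCNC was called in resistant cells with 0.24 ± 0.10 (SE; adjusted p = 0.0493), a call lost without any 1 of the 4 resistant JQ1 and DMSO libraries (0.19 to 0.28), and not in parental cells (0.21 ± 0.10). MED12 fell in both, with -0.54 ± 0.10 (SE; adjusted p = 3.7e-05) and -0.32 ± 0.10 (SE; adjusted p = 0.00621). In resistant cells the count of higher members came to 5 without JQ1 replicate 1, and to 4 without JQ1 replicate 2, DMSO replicate 1 or DMSO replicate 2.

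At the same dose and time, dBET6 and JQ1 were set against each other directly. In resistant cells 26 members were lower with dBET6 than with JQ1 and 5 higher, where 38.8% of all genes were lower and 35.4% higher, with a median of -1.62 over the members and -0.03 over all genes. In parental cells 26 were lower and 4 higher, where 38.4% were lower and 36.2% higher, with medians of -1.33 and 0.00. The libraries did not overlap for 32 members (97%) in resistant and 31 (93.9%) in parental cells. Over all genes tested 86.2% and 85.8% did not overlap, and 74.2% and 74.6% were called in either direction. The lines share 25 of their 26 lower genes. MED1 had the lowest value in both (-3.32 ± 0.11 in resistant and -3.45 ± 0.11 in parental cells), followed by MED27 (-2.98 ± 0.16) in resistant and MED4 (-2.94 ± 0.21) in parental cells. MED26 (1.94 ± 0.10 and 2.14 ± 0.10) and MED24 (1.90 ± 0.10 and 2.17 ± 0.10) were the highest with enough counts. MED12L was higher in both as well (1.92 ± 0.36 and 0.92 ± 0.34), and in parental cells it lost its call without dBET6 replicate 1 (0.88), dBET6 replicate 2 (0.95) or JQ1 replicate 1 (0.90).

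Of the kinase module CDK8, CDK19, CCNC, MED13 and MED13L were lower with dBET6 than with JQ1 in both lines, by log2 fold changes between -2.26 (MED13) and -1.46 (CDK19) in resistant and between -1.97 (MED13L) and -0.64 (CDK8) in parental cells. MED14 was lower as well (-1.44 ± 0.10 and -1.44 ± 0.10). MED12 had -1.30 ± 0.11 (SE; adjusted p = 2.3e-11) in parental cells, and in resistant cells it did not pass the test, with -0.05 ± 0.11 (SE; adjusted p = 0.698). Scaled to mitochondrial mRNAs, 1 member was higher and 30 lower in resistant cells. These comparisons share their libraries with those against DMSO, so they are no separate evidence.

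Between the lines without a compound, 8 members were higher and 5 lower in resistant than in parental cells, where 17.4% of all genes were higher and 21.2% lower. The medians were 0.09 over the members and 0.00 over all genes. The libraries of the lines did not overlap for 27 members (81.8%). Over all genes tested 70.5% did not overlap, and 38.5% were called in either direction. MED10, a middle subunit next to MED14, stood out with 86.9 and 83.5 CPM in resistant DMSO cells, against 45.7 and 43.3 in parental DMSO cells. The lines did not overlap, and the log2 fold change was 0.94 ± 0.09 (SE; adjusted p = 1.27e-09). With JQ1 the level of MED10 was 99.6 and 102 CPM in resistant and 37.9 and 41.3 in parental cells, and with dBET6 it was 12.8 and 14.8 in resistant and 10.1 and 9.63 in parental cells. MED28, a small interface subunit, was lower in resistant cells at 22.6 and 21.2 CPM, against 33.8 and 30.4 in parental cells, with a log2 fold change of -0.55 ± 0.09 (SE; adjusted p = 2.41e-05).

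MED12L was lower in resistant DMSO cells, with a log2 fold change of -1.68 ± 0.37 (SE; adjusted p = 0.000653) on 10 and 17 counts against 47 and 34, and so was MED15 (-0.50 ± 0.10). MED29 (0.37 ± 0.08), MED26 (0.36 ± 0.10) and MED14 (0.36 ± 0.09) were higher. MED1 (0.26 ± 0.08), MED13 (0.25 ± 0.09), MED13L (0.21 ± 0.08) and MED23 (0.32 ± 0.12) were also called higher, and CCNC (-0.36 ± 0.10) and MED6 (-0.36 ± 0.10) lower. CDK8 (-0.11 ± 0.11), CDK19 (0.20 ± 0.11) and MED12 (-0.10 ± 0.09) did not pass the test. MED1, MED13, MED13L, MED23, MED26, CCNC and MED6 each lost the call without at least 1 library. The count of higher members came to 4 without parental DMSO replicate 2, to 3 without resistant DMSO replicate 1 and to 5 without resistant DMSO replicate 2. The count of lower members came to 3 without parental DMSO replicate 1 or resistant DMSO replicate 2. Scaled to mitochondrial mRNAs, 1 was higher and 6 lower.

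Whether the lines responded differently was tested as the difference of the responses. For dBET6 2 members had a higher response in resistant cells and 9 a lower one, where 13.7% of all genes were called higher and 14.2% lower (27.9% in all). The medians were -0.16 over the members and -0.05 over all genes. Under total counts 2 were higher and 20 lower, with medians of -0.60 over the members and -0.49 over all genes. MED12 and MED12L had the higher response. MED12 fell less in resistant cells, with a difference of 1.03 ± 0.15 (SE; adjusted p = 8.2e-06) on the log2 scale, and MED12L had 2.16 ± 0.51 (SE; adjusted p = 0.00185) on few counts.

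MED18, a head subunit, had 2.95 and 3.86 CPM with dBET6, against 18.2 and 17.998 with DMSO in resistant cells and 7.75 and 8.44 CPM with dBET6, against 20.2 and 18.4 with DMSO in parental cells. The DMSO libraries of both lines ran together and the dBET6 libraries did not, and the difference of responses was -1.14 ± 0.21 (SE; adjusted p = 0.000122). CDK8 followed with -1.08 ± 0.19 (SE; adjusted p = 7.44e-05), and MED9, of the middle, with -0.92 ± 0.20 (SE; adjusted p = 0.00088). MED27 (-0.70 ± 0.23), MED13 (-0.68 ± 0.15), MED19 (-0.60 ± 0.13), MED28 (-0.49 ± 0.14), MED10 (-0.45 ± 0.14) and CCNC (-0.43 ± 0.16) also had lower responses. The difference of MED13 came to -0.05 and that of MED28 to 0.02 on log2(FPKM + 1), both not called. MED1 (0.03 ± 0.15), MED14 (-0.19 ± 0.13), MED26 (-0.27 ± 0.14), CDK19 (0.12 ± 0.19) and MED13L (-0.03 ± 0.14) did not pass the test of a difference.

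For these responses single libraries matter. The higher count came to 5 without parental dBET6 replicate 1 and the lower count to 5 without resistant DMSO replicate 1. CCNC lost its call without any 1 of 8 libraries (-0.55 to -0.32 over all exclusions), MED10 without any 1 of 4 (-0.56 to -0.35), and MED28 without resistant DMSO replicate 1. MED27 lost it without parental dBET6 replicate 1 (-0.57), resistant dBET6 replicate 1 (-0.43) or resistant DMSO replicate 1, and stood at -1.08 at its lowest.

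For JQ1 1 member differed between the lines, where 3.62% of all genes had a higher and 2.88% a lower response in resistant cells (6.50% in all). MED10 had a difference of 0.41 ± 0.12 (SE; adjusted p = 0.038), made of 0.24 ± 0.08 in resistant and -0.17 ± 0.09 in parental cells. The call was lost without any 1 of 6 libraries (0.35 to 0.48) and under all 3 other scalings. Of the kinase module, MED1, MED14 and MED26, none passed this test, with differences from -0.24 ± 0.16 (CDK19) to 1.16 ± 0.52 (MED12L). MED11 had -0.47 ± 0.17 (SE; adjusted p = 0.0994).

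**Figure D3:**
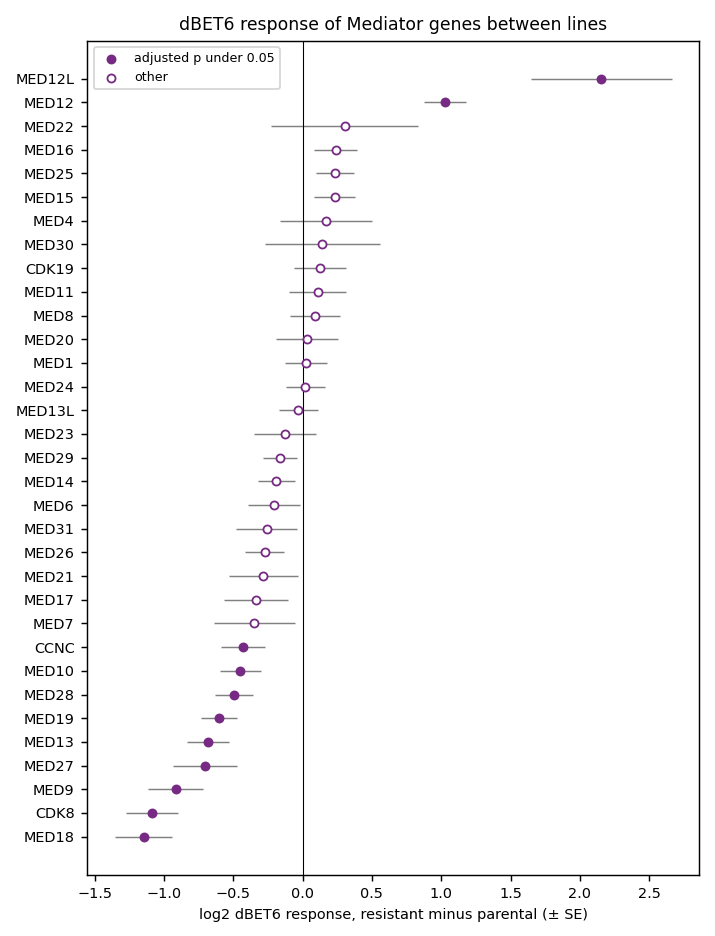
Difference of the log2 response to dBET6, resistant minus parental (horizontal axis, ± SE), for each Mediator gene (vertical axis). Filled points have an adjusted p under 0.05. MED12L (2.16) and MED12 (1.03) lie highest, and MED18 (-1.14) and CDK8 (-1.08) lowest.

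Each member was counted over several annotated transcripts, and the share of a gene's TPM in transcripts typed as protein coding was compared. The rest are types such as retained introns, targets of nonsense-mediated decay and fragments without a full reading frame. The leading transcript of MED28 was typed as such a decay target. Its coding share with DMSO was 37.2% in resistant and 21.1% in parental cells, so most of its TPM lay outside coding transcripts. In resistant cells the median share was 79.6% with dBET6, against 85.6% with DMSO. The dBET6 libraries lay below both DMSO libraries for 15 members and above both for 5. In parental cells the median share was 78.4% with dBET6, against 91.5% with DMSO, with 17 members below and 6 above. With JQ1 it was 9 below and 6 above in resistant cells, and 7 below and 4 above in parental cells. Over 8166 protein-coding genes above 1 FPKM in all libraries with both kinds of transcript, the dBET6 libraries lay below for 38.7% and above for 27% in resistant cells, and below for 39.8% and above for 20.8% in parental cells. Of the 29 members in that set, the shares were 48.3% below and 17.2% above in resistant cells, and 55.2% below and 17.2% above in parental cells. Over all 8166 genes the median share was 78.2% with dBET6, against 83.3% with DMSO, in resistant cells. In parental cells it was 79.3% against 85%. The median difference per gene, in percentage points, was -1.32 over all and -7.92 over the 29 members in resistant cells. In parental cells it was -1.81 and -9.55. With JQ1 the libraries of the 8166 genes lay below for 30.5% and above for 18.9% in resistant cells, and below for 26.4% and above for 18% in parental cells. These counts carry no test, since transcript shares rest on kallisto's division of reads.

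For MED26 the coding share was 57.4% and 59.3% with dBET6, against 87.1% and 89.4% with DMSO, in resistant cells. In parental cells it was 64.0% and 63.8%, against 94.2% and 88.7%. A transcript of MED26 typed as retained intron held 42.6% and 40.7% of the TPM with dBET6, against 12.9% and 10.6% with DMSO, in resistant cells, and 36.0% and 36.2% against 5.78% and 11.3% in parental cells. Counted over protein-coding transcripts alone, an alternative chosen after seeing the data, the log2 fold change of MED26 with dBET6 was 1.83 in resistant and 2.16 in parental cells. Both values are smaller than those over all transcripts and were called.

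MED15, which binds SREBP and SMAD factors, had a coding share of 58.4% and 52.6% with dBET6, against 82.4% and 84.0% with DMSO, in resistant cells, and of 55.8% and 48.9% against 81.2% and 83.7% in parental cells. MED17, the head subunit next to the polymerase, had 19.8% and 6.89% with dBET6, against 43.0% and 53.6% with DMSO, in resistant cells. MED24 went the other way: its share was 78.8% and 88.4% with dBET6, against 54.7% and 53.3% with DMSO, in resistant cells, and 81.3% and 75.5% against 68.3% and 61.8% in parental cells. MED1 had a lower share in parental cells (64.6% and 72.5% with dBET6, against 94.6% and 92.7% with DMSO), and in resistant cells its libraries overlapped.

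A short transcript of MED20 of 932 bases, typed as coding, held 60.6% and 57.5% of the TPM in resistant cells with dBET6, against 26.5% and 29.2% with DMSO. In parental cells it held 68.3% and 68.0% with dBET6, against 36.1% and 42.5% with DMSO. The direction of MED20 with dBET6 depends on the unit: its log2 fold change in counts was -0.42 ± 0.16 in resistant and -0.46 ± 0.15 in parental cells, and on log2(FPKM + 1), which is per length, 0.35 and 0.02.

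**Figure D4:**
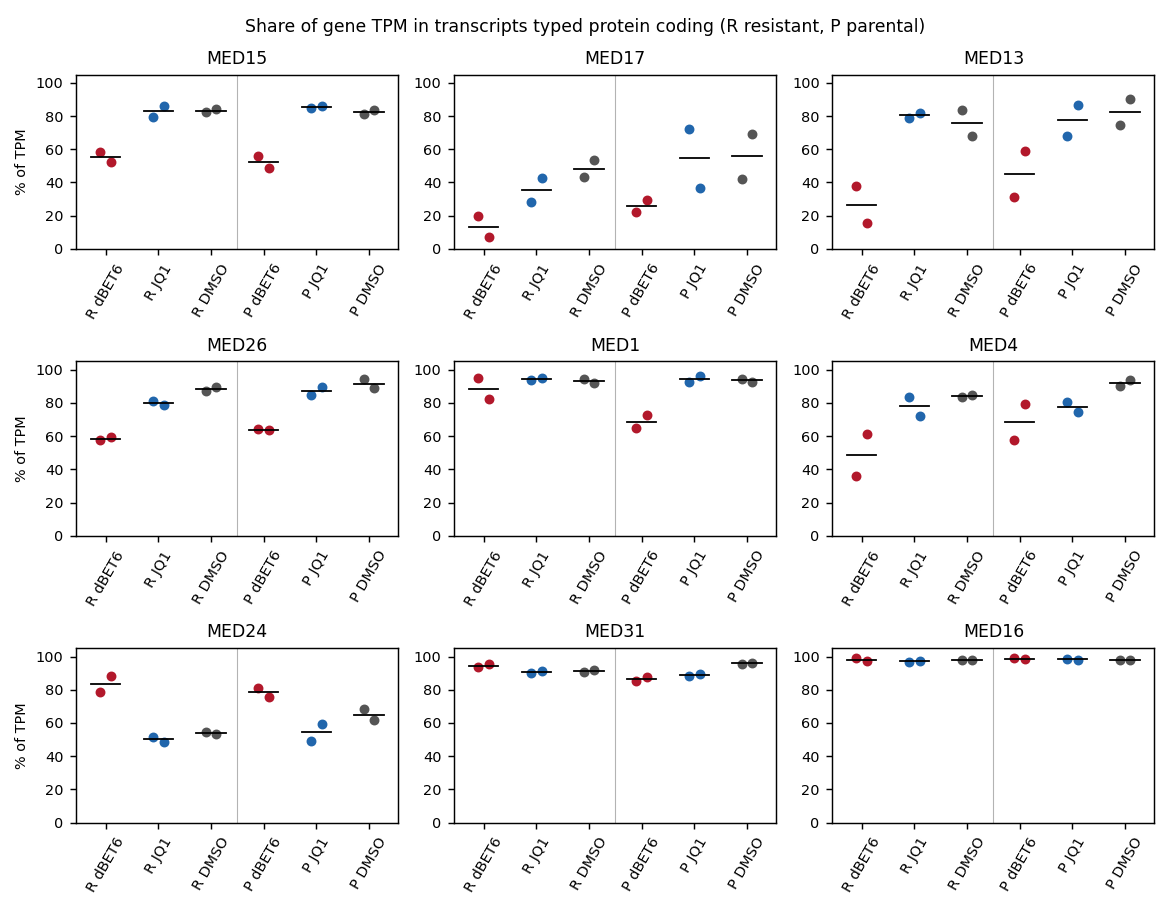
Share of a gene's TPM in transcripts typed as protein coding (vertical axis, %) in each library for 9 Mediator genes, with R for resistant and P for parental cells. Points are libraries and lines means of 2. With dBET6 the share of MED15, MED17, MED13, MED26 and MED4 is lower than with DMSO, that of MED24 is higher, and that of MED16 is near 98% throughout.

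Across the 33 genes, the length of the longest annotated protein was set against the log2 fold change of dBET6 over DMSO. Pearson's r was 0.262 in resistant and 0.113 in parental cells, and Spearman's rho was 0.219 and 0.0971. For JQ1 over DMSO Pearson's r was 0.058 and -0.0475. All genes share the same libraries, so this is a description.

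The rest of the initiation machinery was counted in the same way. Over all genes tested, dBET6 raised 35.7% and lowered 39.5% in resistant cells, and raised 37.0% and lowered 39.3% in parental cells. Each list below is to be read beside these shares. Of 12 RNA polymerase II subunits, dBET6 raised 6 (50%) and lowered 5 (41.7%) in resistant cells. In parental cells it raised 6 (50%) and lowered 3 (25%). The medians were 0.36 and 0.23, which turned to -0.72 and -0.41 under total counts. POLR2L, a small subunit shared by the nuclear polymerases, had the highest value (2.39 ± 0.09 in resistant and 1.60 ± 0.09 in parental cells) and POLR2D, of the stalk, the lowest (-1.69 ± 0.11 and -1.41 ± 0.10). Of 18 general transcription factor genes 2 rose and 16 fell in resistant cells and 2 rose and 14 fell in parental cells (medians -1.18 and -0.88), from ERCC2 (1.43 ± 0.09) to GTF2A1 (-2.95 ± 0.16) in resistant and from GTF2H5 (0.85 ± 0.11) to GTF2H2 (-2.79 ± 0.18) in parental cells.

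Of 15 TFIID genes, which encode the factor that recognises core promoters, 3 rose and 10 fell with dBET6 in resistant cells and 3 rose and 9 fell in parental cells, with medians of -0.92 and -0.63. TAF10 was the highest (2.37 ± 0.09 and 1.53 ± 0.09), and TAF5 was the lowest in resistant cells (-4.10 ± 0.49, with 1 library at 0 counts) and TAF9 in parental cells (-2.63 ± 0.17). With JQ1 8 TFIID genes rose and none fell in resistant cells, and 10 rose and 1 fell in parental cells, led by TAF12 (1.43 ± 0.11 and 1.13 ± 0.11). Over all genes tested, JQ1 raised 20.8% and lowered 23.1% in resistant cells, and raised 22.8% and lowered 26.1% in parental cells. The TFIID medians with JQ1 were 0.43 and 0.45, under total counts 0.24 and 0.33, and under mitochondrial scaling -0.14 and 0.16. JQ1 raised 3 (25%) and lowered 0 polymerase subunits in resistant cells and raised 2 (16.7%) and lowered 3 (25%) in parental cells. It raised 6 (33.3%) and lowered 5 (27.8%) general factors in resistant cells, and raised 3 (16.7%) and lowered 5 (27.8%) in parental cells.

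Both compounds bind BET proteins, of which BRD2 and BRD3 are described here. BRD2 rose with JQ1 (2.03 ± 0.09 in resistant and 2.02 ± 0.09 in parental cells) and with dBET6 (0.86 ± 0.08 and 1.14 ± 0.08). The dBET6 value of BRD2 in resistant cells is smaller than the 1.14 by which the median gene fell under total counts. BRD3 fell with dBET6 (-2.45 ± 0.11 and -1.92 ± 0.10). With JQ1 BRD3 did not pass the test in either line.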

How the data were processed

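PolyA RNA was sequenced from 12 libraries of U87 cells, 2 per group. The submitters' processing notes name kallisto, DESeq2 and hg19, without versions. Per the file headers, the deposited tables hold estimated counts and TPM per transcript and FPKM per gene, all made by the authors; how FPKM were summed per gene is not given in the sources used here.

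Estimated counts were summed per gene through the GENCODE 29 annotation, which paired 92.12% of 196354 transcripts (94.67% to 96.16% of the counts), and rounded. TPM summed per gene, after 1 factor per library, came within 1% of the deposited FPKM for 81.99% of 10511 genes above 1 FPKM in all libraries, and within 5% for 31 of the 33 members. The 12 libraries entered 1 fit in edgeR 4.0.16 (R 4.3.3) with TMM scaling, filterByExpr and the quasi-likelihood test (6 residual degrees of freedom), with Benjamini-Hochberg adjustment over 19093 genes. The fit was tested on simulated data. Alternatives were total counts, mitochondrial mRNAs and RLE as scaling, DESeq2 1.42.0, other filters, limma 3.58.1 on log2(FPKM + 1) or log2(FPKM + 0.1), the replicate block, leaving out each library and protein-coding transcripts alone. Totals were 24732177 to 40388589 counts.

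The members and lists were chosen with earlier results of these data known. Named in full were the 3 highest and 3 lowest called members of each comparison with DMSO, the 2 highest and 2 lowest of the others, the kinase module, MED1, MED14 and MED26, and the ends of each other list. Other genes were named after their values were seen. Files were joined in Python 3.11.15 with pandas 2.3.3. The 21 antisense and pseudogene rows with Mediator names (at most 2.301 FPKM) were left out, and strand was not given, so overlapping antisense reads cannot be told apart.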

Additional observations from a re-analysis of the deposited data

Results flagged for a closer look

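A difference between the lines in the response to dBET6 passed the test for 11 members, where 27.9% of all genes did. The differences of the log2 responses, resistant minus parental, were 2.16 for MED12L and 1.03 for MED12. They were -1.14 for MED18, -1.08 for CDK8, -0.92 for MED9, -0.70 for MED27, -0.68 for MED13, -0.60 for MED19, -0.49 for MED28, -0.45 for MED10 and -0.43 for CCNC. Under total-count scaling 20 members, in place of 9, had a lower response in resistant cells. For JQ1 the difference passed for MED10 (0.41), where 6.50% of all genes did.

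Both lines held 2 libraries per group, and the values of MED12L rest on 10 to 47 counts per library. MED18, MED9 and CDK8, which code for a head subunit, a middle subunit and the kinase, fell with dBET6 in both lines and farther in resistant cells, while MED19 rose in both and less in resistant cells.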

How the results depend on the processing

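Of 297 member values, 283 kept their call (higher, lower or not called) with RLE size factors and 286 without the filter on low counts. The call was kept by 280 of 296 with DESeq2, 251 with total counts, 234 with mitochondrial scaling and 246 of 288 with limma on log2(FPKM + 1). A value called in neither fit counts as kept whatever its sign. Members listed below as changing direction were called in the fit used above, in the alternative or in both. The causes of the changes below were not tested, beyond the shift of the median gene with scaling. Scaled by total counts, the counts that moved by more than 1.5 times were 3 higher for dBET6 over DMSO in resistant cells, 3 higher and 14 lower for JQ1 over DMSO in resistant cells, 12 lower for JQ1 over DMSO in parental cells, 3 higher for dBET6 over JQ1 in resistant cells, 20 lower for the difference of dBET6 responses and 0 higher for the difference of JQ1 responses. There the members that changed direction were MED24 (-0.23), MED25 (-0.94) and MED16 (-0.61) for dBET6 over DMSO in resistant cells, MED28 (-0.55) and MED16 (-0.42) for dBET6 over DMSO in parental cells, MED25 (-0.78), MED19 (-0.024) and MED16 (-0.59) for dBET6 over JQ1 in resistant cells, MED25 (-0.42) and MED16 (-0.28) for dBET6 over JQ1 in parental cells and MED24 (-0.41) and MED1 (-0.41) for the difference of dBET6 responses. Scaled to mitochondrial mRNAs, the counts that moved by more than 1.5 times were 0 higher for dBET6 over DMSO in resistant cells, 1 higher for dBET6 over DMSO in parental cells, 0 higher and 19 lower for JQ1 over DMSO in resistant cells, 1 higher for JQ1 over DMSO in parental cells, 1 higher for dBET6 over JQ1 in resistant cells, 2 higher for dBET6 over JQ1 in parental cells, 1 higher for resistant over parental cells, 1 higher for the difference of dBET6 responses and 0 higher for the difference of JQ1 responses. There the members that changed direction were MED24 (-1.23), MED25 (-1.93), MED19 (-0.76) and MED16 (-1.60) for dBET6 over DMSO in resistant cells, MED24 (-0.97), MED28 (-1.67), MED12L (-1.13) and MED16 (-1.56) for dBET6 over DMSO in parental cells, MED17 (-0.57), MED15 (-0.14), MED25 (-0.54), MED26 (-0.30), CCNC (-0.35), MED23 (-0.21), MED20 (-0.17), MED10 (-0.33) and MED19 (-0.13) for JQ1 over DMSO in resistant cells, MED25 (-1.39), MED19 (-0.64) and MED16 (-1.20) for dBET6 over JQ1 in resistant cells, MED25 (-1.37), MED12L (-0.54) and MED16 (-1.24) for dBET6 over JQ1 in parental cells and MED13L (-0.029) for resistant over parental cells. With DESeq2's RLE size factors, the counts that moved by more than 1.5 times were 6 higher for dBET6 over DMSO in parental cells and 0 higher for the difference of JQ1 responses. Without the filter on low counts, the counts that moved by more than 1.5 times were 0 higher for the difference of JQ1 responses. With genes averaging at least 10 CPM (28 members), the counts that moved by more than 1.5 times were 6 higher for dBET6 over DMSO in parental cells, 8 higher for JQ1 over DMSO in parental cells and 1 higher for the difference of dBET6 responses. There the members that changed direction were MED29 (0.12) and MED25 (0.27) for dBET6 over DMSO in parental cells and MED12 (0.36) for dBET6 over JQ1 in resistant cells. With limma on log2(FPKM + 1), the counts that moved by more than 1.5 times were 3 higher for dBET6 over DMSO in resistant cells, 4 higher for JQ1 over DMSO in resistant cells, 3 higher for JQ1 over DMSO in parental cells, 3 higher for dBET6 over JQ1 in resistant cells, 2 higher and 3 lower for resistant over parental cells, 1 higher and 5 lower for the difference of dBET6 responses and 0 higher for the difference of JQ1 responses. There the members that changed direction were MED28 (0.0019) and MED20 (0.35) for dBET6 over DMSO in resistant cells, MED20 (0.022) for dBET6 over DMSO in parental cells, MED25 (-0.27) for dBET6 over JQ1 in resistant cells and MED28 (0.018) for the difference of dBET6 responses. With limma on log2(FPKM + 0.1), the counts that moved by more than 1.5 times were 3 higher for dBET6 over DMSO in resistant cells, 4 higher and 4 lower for JQ1 over DMSO in resistant cells, 3 higher for JQ1 over DMSO in parental cells, 3 higher for dBET6 over JQ1 in resistant cells, 2 higher and 3 lower for resistant over parental cells, 1 higher and 5 lower for the difference of dBET6 responses and 0 higher for the difference of JQ1 responses. There the members that changed direction were MED28 (0.0018) and MED20 (0.40) for dBET6 over DMSO in resistant cells, MED20 (0.020) for dBET6 over DMSO in parental cells, MED25 (-0.27) for dBET6 over JQ1 in resistant cells and MED28 (0.020) for the difference of dBET6 responses. With limma on log2(FPKM + 1) and no filter, the counts that moved by more than 1.5 times were 3 higher for dBET6 over DMSO in resistant cells, 2 higher and 4 lower for JQ1 over DMSO in resistant cells, 2 higher for JQ1 over DMSO in parental cells, 3 higher for dBET6 over JQ1 in resistant cells, 1 higher and 2 lower for resistant over parental cells, 1 higher and 4 lower for the difference of dBET6 responses and 0 higher for the difference of JQ1 responses. There the members that changed direction were MED28 (0.0019) and MED20 (0.35) for dBET6 over DMSO in resistant cells, MED20 (0.022) for dBET6 over DMSO in parental cells, MED12L (-0.034) for dBET6 over JQ1 in parental cells and MED28 (0.018) for the difference of dBET6 responses. Counted over protein-coding transcripts alone, a choice made after seeing the data, the counts that moved by more than 1.5 times were 5 higher for dBET6 over DMSO in parental cells.

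Without each library in turn, the counts of members were 5 higher and 25 to 26 lower for dBET6 over DMSO in resistant cells, 3 to 4 higher and 24 to 27 lower for dBET6 over DMSO in parental cells, 4 to 9 higher and 5 to 8 lower for JQ1 over DMSO in resistant cells, 5 to 7 higher and 7 to 8 lower for JQ1 over DMSO in parental cells, 4 to 5 higher and 26 lower for dBET6 over JQ1 in resistant cells, 3 to 5 higher and 26 lower for dBET6 over JQ1 in parental cells, 3 to 8 higher and 3 to 7 lower for resistant over parental cells, 2 to 5 higher and 5 to 9 lower for the difference of dBET6 responses, 0 to 1 higher and 0 lower for the difference of JQ1 responses. Same-numbered libraries did not deviate together over all genes (correlations of -0.058 to 0.061 over 15 pairs of groups, 0 of them over 0.1). Such a correlation cannot exclude a shared batch that acts on some genes, and the labels do not name one. With the replicate number as a block 5 values lost and 1 gained a call, and the higher count for the difference of JQ1 responses was 0. Genes near 1 CPM, such as MED12L and MED30, are limited by depth.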
